A study of Mus musculus with 3 samples.

Results

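The methylation of 10 genes of the germline was followed in reduced representation bisulfite sequencing (RRBS) of mouse embryonic stem (ES) cells. These genes are Dazl, Ddx4, Sohlh2, Mael, Asz1, Sycp3, Hormad1, Brdt, Slc25a31 and Stk31. Their promoters were defined as all CpGs within 2000 bp of any annotated transcript start in mm9, and a CpG was used where it had more than 10 reads. They are 10 of the 22238 protein-coding genes in the annotation, and 13125 of those genes had at least 5 promoter CpGs covered in both the wild-type and the Dnmt3a KO library. RRBS reads the ends of fragments cut by MspI at CCGG, so only CpGs near such sites are measured, and a methylation level is the number of methylated reads divided by all reads. Each genotype is 1 library, and differences between genotypes therefore have no replicate check. The wild-type cells are of mixed 129-C57Bl/6 background, grown on feeder cells or gelatine. The Dnmt3a KO cells have the same mixed background and grew on gelatine, and CRISPR cuts with 2 guides in exon 7 removed both DNMT3A isoforms. The sources used here do not say how many clones this library stands for. The Dnmt TKO cells are of strain J1, grew on gelatine and lack the methyltransferases DNMT1, DNMT3A and DNMT3B. All cells were kept in medium with serum and LIF. Genotype cannot be told apart from strain background in Dnmt TKO, nor from any difference between cultures in either mutant.

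DNMT3A and DNMT3B place methyl groups on unmethylated CpGs, and DNMT1 copies the pattern to the new strand after replication. Many genes that act only in germ cells have CpG-rich promoters that become methylated as the embryo implants and stay methylated in somatic cells, which is a known way of keeping these genes off. Most CpG-rich promoters are free of methylation, so germline promoters are a well-known exception. RNA was not measured in these libraries, and silencing itself cannot be read from them.

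The libraries differed in depth. Wild type listed 1035670 CpGs, Dnmt3a KO 918295 and Dnmt TKO 558703, with medians of 29, 17 and 12 reads. Of all reads at CpGs with more than 10 of them, the methylated share was 17.5% for wild type, 12.8% for Dnmt3a KO and 0.0931% for Dnmt TKO. The value near 0 in Dnmt TKO fits its label. Loss of Dnmt3a cannot be checked in methylation calls. Of 8 ES cell marker genes, 5 had at least 5 shared promoter CpGs, with wild-type levels from 0.0664% to 3.45%. Feeder cells are of another cell type and were listed for wild type alone, and their part in the results was not tested.

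Of the 10 germline promoters, 9 had CpGs covered in both wild type and Dnmt3a KO, and these made 210 CpGs in all. The exception was Ddx4, which had none in wild type. The following windows show DNA in which the measured CpGs were read, each printed from the gene's own strand of mm9. Capitals mark CpGs that were covered in both libraries and had at least 20% methylation in wild type. Those in lower case were either below 20% or not covered in both. Hormad1, Asz1, Mael, Slc25a31 and Stk31 are shown up to the last base before their most upstream start. Sohlh2 is shown within the intron that holds its shared CpGs, and Dazl within the intron between its starts. Of the 58 shared CpGs of Dazl, 30 are intronic, and most of these lie between its starts. The windows are chr3:95363476-95363598 (plus strand) for Hormad1, chr6:18059062-18059182 (minus) for Asz1, chr1:168168876-168169020 (minus) for Mael, chr3:40512591-40512776 (plus) for Slc25a31, chr6:49345494-49345602 (plus) for Stk31, chr17:50432374-50432574 (minus) for Dazl and chr3:54986355-54986574 (plus) for Sohlh2.
Hormad1: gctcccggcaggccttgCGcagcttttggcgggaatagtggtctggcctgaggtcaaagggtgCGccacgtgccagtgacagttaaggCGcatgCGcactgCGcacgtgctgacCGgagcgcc
Asz1: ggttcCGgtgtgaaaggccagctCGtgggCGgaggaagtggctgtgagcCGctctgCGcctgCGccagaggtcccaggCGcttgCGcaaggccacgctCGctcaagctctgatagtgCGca
Mael: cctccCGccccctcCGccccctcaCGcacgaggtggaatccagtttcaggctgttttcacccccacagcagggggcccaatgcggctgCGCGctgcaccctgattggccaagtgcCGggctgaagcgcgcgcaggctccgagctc
Slc25a31: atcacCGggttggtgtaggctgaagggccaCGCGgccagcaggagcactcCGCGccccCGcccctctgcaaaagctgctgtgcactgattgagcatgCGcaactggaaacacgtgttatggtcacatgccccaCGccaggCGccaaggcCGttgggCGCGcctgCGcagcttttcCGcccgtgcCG
Stk31: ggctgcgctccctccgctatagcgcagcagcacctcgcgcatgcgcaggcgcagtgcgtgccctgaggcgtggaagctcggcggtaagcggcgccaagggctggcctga
Dazl: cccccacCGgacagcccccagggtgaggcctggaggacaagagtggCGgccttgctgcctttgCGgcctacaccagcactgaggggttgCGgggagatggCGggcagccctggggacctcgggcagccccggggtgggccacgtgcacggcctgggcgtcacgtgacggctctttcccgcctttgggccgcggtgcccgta
Sohlh2: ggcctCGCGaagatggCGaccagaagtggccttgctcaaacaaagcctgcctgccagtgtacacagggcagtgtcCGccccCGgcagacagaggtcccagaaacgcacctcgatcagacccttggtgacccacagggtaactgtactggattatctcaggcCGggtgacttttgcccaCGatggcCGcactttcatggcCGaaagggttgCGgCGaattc
The windows of Asz1 and Slc25a31 carry methylated CpGs throughout. In the Dazl window, capitals stop partway, and in the Stk31 window there are none.

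Over the 210 shared CpGs, 4978 of 13699 reads were methylated in wild type, or 36.3% (95% Wilson interval 35.5 to 37.1). In Dnmt3a KO, 1240 of 5953 reads were methylated, or 20.8% (19.8 to 21.9). The difference was -15.5 percentage points (95% Newcombe interval -16.8 to -14.2), so the promoters together kept 57.3% of their wild-type methylation (95% interval of the ratio 54.3 to 60.5). These intervals cover counting error only, and they are too narrow where PCR copies or neighbouring CpGs of 1 read were counted more than once. In single CpGs, the Dnmt3a KO level was lower than wild type at 169, higher at 23 and equal at 18. The same count over all shared CpGs was not made. Where wild type had 20% or more, the median difference was -24.7 points at germline CpGs and -15.5 points at all shared CpGs. Fisher's exact test, adjusted by Benjamini-Hochberg over all 631561 shared CpGs, at an adjusted p under 0.05 and a difference of at least 20 points, called 36 of the 210 lower, or 17.1%. Over all shared CpGs, 1.64% were called lower. None of the 210 was called higher, where 0.0304% of all shared CpGs were. This test sets 1 library against another and is not a test of genotype.

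A CpG can only be called lower where wild type has methylation to lose. Where wild type had 20% or more, 36 of 145 germline CpGs were called lower (24.8%), beside 6.59% of all such CpGs. Read depth moved with this difference, since the median depth of these germline CpGs was 65 reads in wild type and 26 in Dnmt3a KO, and that of all such CpGs was 38 and 16 reads. With each CpG thinned to the smaller of its 2 depths, 11 germline CpGs were called lower, and 0.555% of all shared CpGs at any wild-type level. Thinning evened the 2 libraries at each CpG, but not the depth between germline and other CpGs. It therefore cannot show how much that depth added to the calls. Without any test, 92 of the 145 were at least 20 points lower in Dnmt3a KO, or 63.4%, and 40.6% of all such CpGs were. Their mean level went from 53.7% in wild type to 29.0% in Dnmt3a KO, and that of all such CpGs from 68.6% to 52.5%.

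**Figure D1:**
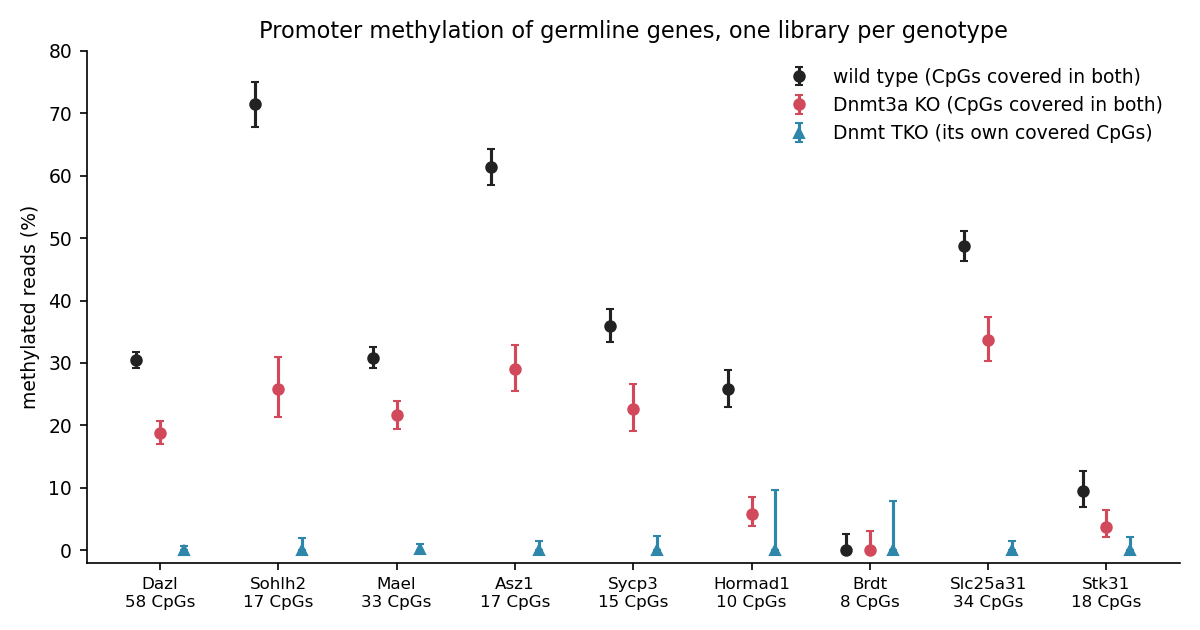
Promoter methylation (methylated reads in percent, vertical axis) of the 9 germline genes with shared CpGs, with 95% Wilson intervals of the reads in 1 library per genotype. Wild type (black) and Dnmt3a KO (red) are given over CpGs covered in both, Dnmt TKO (blue triangles) over its own CpGs, and the black point lies over the red one in 8 of the 9 genes. Of the 10883 promoters above 0% in wild type, 81.5% were lower in Dnmt3a KO.

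Among the regulators of germ cells, Sohlh2 showed the largest difference of the 9 genes compared and Ddx4 could not be compared. Sohlh2 is a basic helix-loop-helix transcription factor of early spermatogenesis and oocyte growth. Its 17 shared CpGs all lie in the intron 105 to 709 bp after the start, and 422 of 590 reads were methylated in wild type (71.5%), beside 81 of 314 in Dnmt3a KO (25.8%). The difference was -45.7 points (-51.4 to -39.4), and 36.1% of the wild-type level was kept (29.7 to 43.8). All 17 CpGs were lower in Dnmt3a KO, and 8 of them were called. In the printed stretch, the CpG 421 bp after the start had 36 of 40 methylated reads in wild type and 2 of 20 in Dnmt3a KO, an adjusted p of 2.33e-06 by Fisher's exact test between the 2 libraries. The 9 CpGs up to 500 bp from the start went from 68.0% to 17.7%, and the 8 beyond 500 bp from 74.7% to 32.9%.

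Dazl encodes an RNA-binding protein that raises the translation of germ cell mRNAs. It had the most shared CpGs, 58, with 30.4% methylated reads in wild type (1509 of 4956) and 18.8% in Dnmt3a KO (337 of 1794). By pooled reads it kept 61.7% (55.5 to 68.5), and 12 CpGs were called lower. Its CpGs lay in 2 zones, which kept 22.4% and 53.4%, so the pooled share lies above both. As a mean over CpGs, Dazl kept 49.3%. A run of 28 consecutive CpGs from position 50432099 to 50432454, around the inner start of transcript Dazl-202 at 50432217, was under 20% in wild type at each CpG and had 4.55% methylated reads in all, beside 1.02% in Dnmt3a KO. The other 30 CpGs, from 50432473 to 50432945, surround the outer start of Dazl-201 at 50432924 and had 61.0% in wild type and 32.6% in Dnmt3a KO. Levels change between the zones within the printed window, where the CpG at 50432454 had 17.5%, the next at 50432473 had 49.5% and that at 50432484 had 71.4%. In Dnmt3a KO, the same 3 CpGs had 0%, 3.85% and 19.2%. The methylated CpG closest to the unmethylated zone was thus one of the 12 called lower, with an adjusted p of 0.00132.

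Ddx4, the RNA helicase also known as Vasa, had no CpG with more than 10 reads in wild type within its window, although the window holds 103 CpGs and 10 CCGG sites. In Dnmt3a KO, 9 intronic CpGs between 169 and 214 bp after the start had 5 methylated of 107 reads (4.67%, 2.01 to 10.5). In Dnmt TKO, 10 other CpGs between 284 and 368 bp after the start had 11 methylated of 133 reads (8.27%, 4.68 to 14.2). No value of wild type stands beside these, and no kept share can be given. Each of the 10 CpGs in Dnmt TKO had 1 or 2 methylated reads of 12 to 15. The 11 methylated counts may thus come from as few as 2 reads that span several CpGs, which was not tested. Where reads span several CpGs, the intervals given here for Ddx4 are too narrow. These CpGs lie 135 to 219 bp from the nearest CCGG, whereas the CpGs of Ddx4 in Dnmt3a KO lie 20 to 65 bp from one.

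The piRNA pathway, in which small RNAs keep transposons silent in the germline, was represented by Mael and Asz1. Asz1 anchors piRNA proteins at the granules between mitochondria. Its 17 shared CpGs, 115 bp before to 98 bp after the nearest start, had 61.4% in wild type (680 of 1107) and 29.1% in Dnmt3a KO (173 of 595). The difference was -32.4 points (-36.9 to -27.6), with 47.3% kept (41.4 to 54.1), and 10 CpGs were called lower. Of the 17, 16 were at 49.3% to 84.2% in wild type. The remaining CpG, 26 bp before the start at position 18059087, had 0 methylated of 74 reads in wild type, 0 of 42 in Dnmt3a KO and 0 of 19 in Dnmt TKO. A count of 0 of 74 allows a level of up to 4.05%. Its neighbours, 4 bp nearer to the start and 10 bp farther from it, had 49.3% and 84.2% in wild type, so adjacent CpGs of the same stretch differed.

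Mael, the Maelstrom protein that acts with piRNAs in the nucleus and cytoplasm, had 30.8% in wild type (863 of 2798) and 21.6% in Dnmt3a KO (270 of 1250) over 33 CpGs. It kept 70.0% (62.2 to 78.9), the highest share among the 8 genes with one, and no CpG was called. Levels on the 2 sides of its start differed in how much was kept. The 8 CpGs upstream had 29.9% in wild type and 9.21% in Dnmt3a KO, all 8 lower, with 30.8% kept (18.2 to 52.1). The 25 CpGs after the start had 31.0% and 23.3%, with 17 lower and 8 higher, and kept 75.3% (66.6 to 85.1). These 25 were not alike. The 13 in coding sequence kept 86.6% and the 7 in the exon outside coding sequence 65.7%. The 5 in the intron kept 48.2%, and all 5 were lower. The split between the 2 sides was noticed after the values were seen and was not tested.

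**Figure D2:**
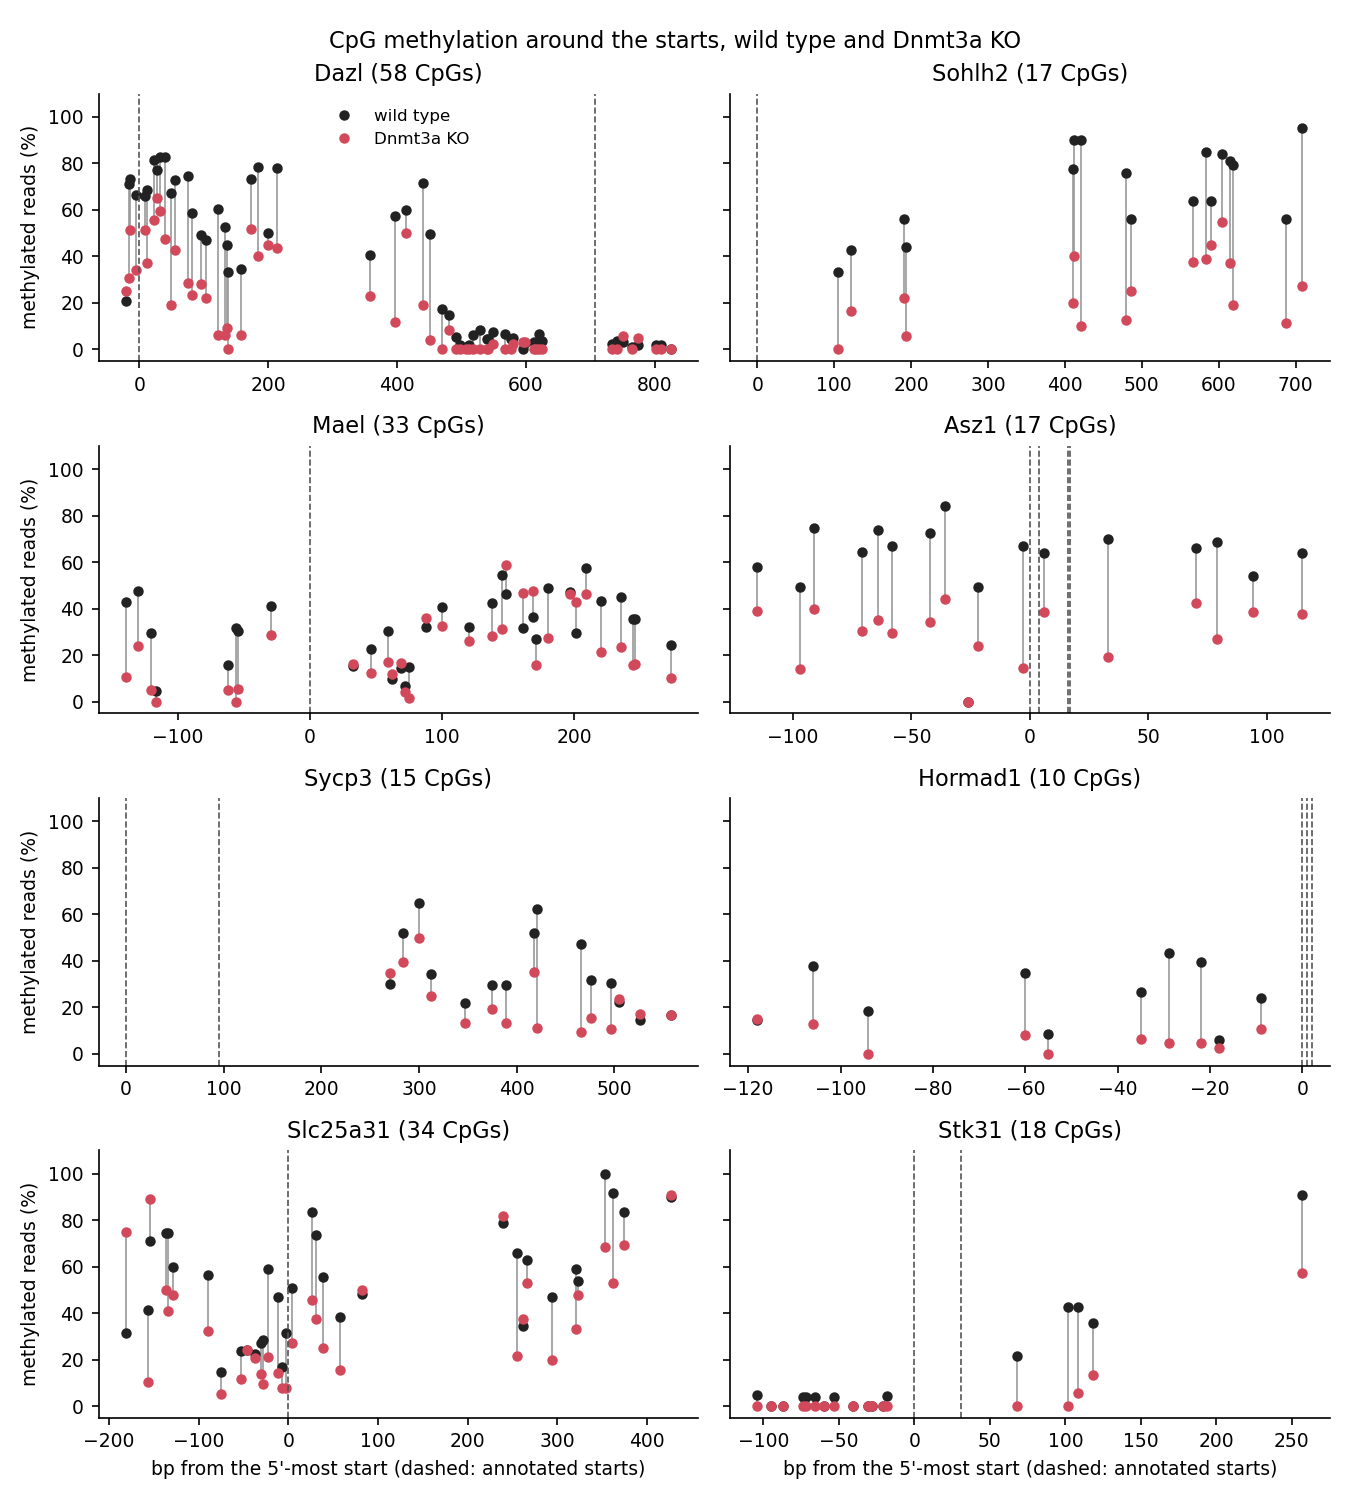
Methylation of each shared CpG (percent of reads, vertical axis) by its distance in bp from the 5'-most annotated start (horizontal axis), for the 8 genes with methylated reads. Black points are wild type, red points Dnmt3a KO, grey lines join the same CpG and dashed lines are annotated starts. The near-0 zones of Dazl and Stk31 and the single unmethylated CpG of Asz1 stand apart from their methylated neighbours.

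Of the proteins of meiotic chromosomes, Hormad1 kept the least and Sycp3 an intermediate share. Hormad1 binds chromosome axes that have not yet paired. All of its 10 CpGs lie 9 to 118 bp upstream, and 212 of 822 reads were methylated in wild type (25.8%) beside 24 of 414 in Dnmt3a KO (5.80%). The difference was -19.99 points (-23.6 to -16.1), and 22.5% was kept (15.0 to 33.7). Of its 10 CpGs, 9 were lower and 3 were called, at 60, 29 and 22 bp before the start, where 34.7%, 43.3% and 39.3% in wild type stood against 8%, 4.55% and 4.76% in Dnmt3a KO. The CpG at -94 also had an adjusted p under 0.05 (0.0424, from 18.3% to 0%), but its difference was under 20 points.

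Sycp3, a part of the lateral elements of the synaptonemal complex, had 36.0% in wild type (447 of 1242) and 22.7% in Dnmt3a KO (104 of 459) over 15 intronic CpGs 175 to 463 bp after the nearest start. It kept 63.0% (52.3 to 75.7), with 2 CpGs called lower, at 326 and 371 bp. Upstream of its start, 8 CpGs were covered in Dnmt3a KO and not in wild type, and 39 of 164 reads were methylated (23.8%), from 0% to 47.4%. These upstream CpGs were thus methylated in Dnmt3a KO to a level close to that of the 15 intronic CpGs, but without a wild-type value. Also without one, 4 other intronic CpGs had 1 of 46 methylated reads in Dnmt3a KO (2.17%) and 1 exonic CpG had 0 of 19.

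Among the genes of sperm metabolism and late spermatogenesis, Slc25a31 was highly methylated, Stk31 largely unmethylated upstream, and Brdt unmethylated where it could be compared. Slc25a31 is the ADP/ATP carrier of testis mitochondria. Its 34 CpGs had 48.7% in wild type (809 of 1661) and 33.8% in Dnmt3a KO (240 of 711), a difference of -15.0 points (-19.1 to -10.7) with 69.3% kept (61.8 to 77.7). It was the most methylated of the 9 in Dnmt3a KO, and 1 CpG was called lower, 27 bp after the start. Of its CpGs, 28 were lower and 6 higher. At the CpG farthest upstream (-181), 6 of 19 reads were methylated in wild type and 9 of 12 in Dnmt3a KO, with an adjusted p of 0.50, so this difference did not pass the test.

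Stk31, a kinase-like protein of the testis with a Tudor domain, had 9.42% in wild type (36 of 382) and 3.69% in Dnmt3a KO (11 of 298) over 18 CpGs. The 13 CpGs upstream of its start had 1.90% in wild type, at most 4.76% at one CpG, and 0% in Dnmt3a KO. The 5 CpGs after the start had 44.8% in wild type and 14.1% in Dnmt3a KO. Its kept share of 39.2% has a wide interval (20.3 to 75.6), and none of its CpGs was called.

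Brdt, a bromodomain protein that binds acetylated histones in spermatids, could be compared only in a coding exon at the inner start of the non-coding transcript Brdt-002. There, 8 CpGs had 0 of 141 methylated reads in wild type and 0 of 118 in Dnmt3a KO. These counts allow levels of up to 2.13% and 2.54% (3 counts of the total) if no read was counted at several CpGs. Where reads span several CpGs these limits are too low, since the median depth of a CpG was 17.5 and 15.5 reads. If every read spanned all 8 CpGs, the interval of the difference was -17.9 to 20.7 points. Near the outer starts, 4 intronic CpGs from 632 to 731 bp were covered in wild type only, with 148 of 194 methylated reads (76.3%) and 68.6% to 83.7% at the single CpGs. The label of a methylated germline promoter thus held in wild type for the DNA after the outer starts of Brdt, not for its inner start, and held for Stk31 only after the start. In Dazl it held around the outer start (61.0%), not for the run of CpGs around the inner start (4.55%).

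**Figure D3:**
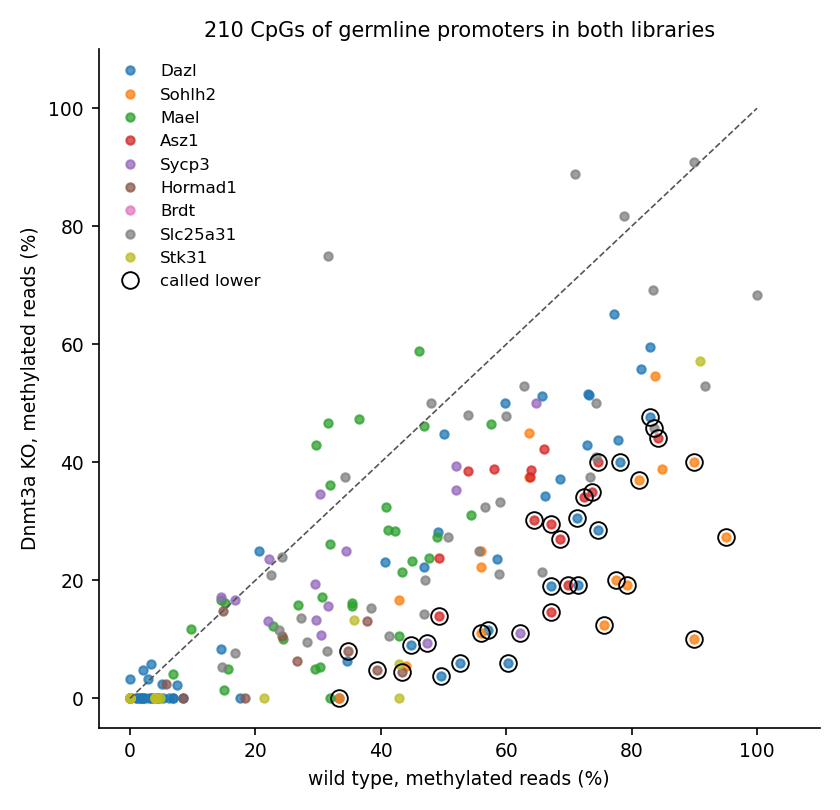
Each of the 210 shared CpGs, with the wild-type level on the horizontal and the Dnmt3a KO level on the vertical axis (both percent of methylated reads), coloured by gene. The dashed line marks equal levels, black rings mark the 36 CpGs called lower, all under the line, and 23 CpGs lie above it.

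Counting all 9 comparable promoters, Sohlh2 and Asz1 were lower by at least 20 points in Dnmt3a KO. That is 2 of 9, and 3.24% of the 13125 promoters with at least 5 shared CpGs were. Most of those promoters have no methylation to lose, with a median of 0.306% in wild type. Of the 1184 promoters with 20 to 80% in wild type, 32.4% were lower by at least 20 points, and of the 7 germline promoters in that range 2 were, a share near this background. The intervals of the difference excluded 0 in 8 of 9 promoters. If every read spanned every CpG of its promoter, the widest case, they did so in 3 (Sohlh2, Asz1 and Hormad1). Intervals were not counted for other promoters, but of the 1184 with 20 to 80% in wild type 94.2% were lower in Dnmt3a KO.

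The median kept share was 54.5% over the 8 promoters with methylated reads and 61.7% over the 7 with 20 to 80% in wild type. Over the 1184 promoters of that range the median was 60.9%, with quartiles of 45.6% and 77.9%. The 61.7% is the pooled share of Dazl, and the comparison changed with the weighting of CpGs. As means over CpGs, an alternative added after seeing the data, the 7 germline promoters kept a median of 49.3%, from 25.5% to 69.2%, and the 1281 promoters of that range 70.0%. Over the 594 promoters with at least 50% in wild type the median was 72.4%, and Sohlh2 and Asz1, the only germline genes at that level over shared CpGs, kept less than that. Among the 1184 promoters by pooled reads, none of the germline genes reached the upper quartile. Hormad1 was above 4.05% of them, Sohlh2 above 14.4%, Asz1 above 27.7%, Dazl above 51.1%, Sycp3 above 52.7%, Slc25a31 above 62.0% and Mael above 63.3%. These ranks depend on the weighting. As means over CpGs, all 7 lay under the median of the 1281 promoters, from Hormad1 above 3.43% of them to Slc25a31 above 48.4%. In the order of kept shares, Hormad1 and Sohlh2 had intervals that overlapped each other, and those of Sohlh2 and Asz1 overlapped as well. That of Asz1 overlapped with Sycp3 and ended below that of Dazl. The intervals of Dazl, Sycp3, Slc25a31 and Mael all overlapped. If every read spanned every CpG of its promoter, the widest case, the intervals of all 7 genes overlapped. That of Hormad1 was then 6.24 to 81.0% and that of Mael 35.3 to 139%, so the counts do not separate these genes. As means over CpGs, Asz1 kept 48.5% and Dazl 49.3%, so their order rests on the pooled reads.

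**Figure D4:**
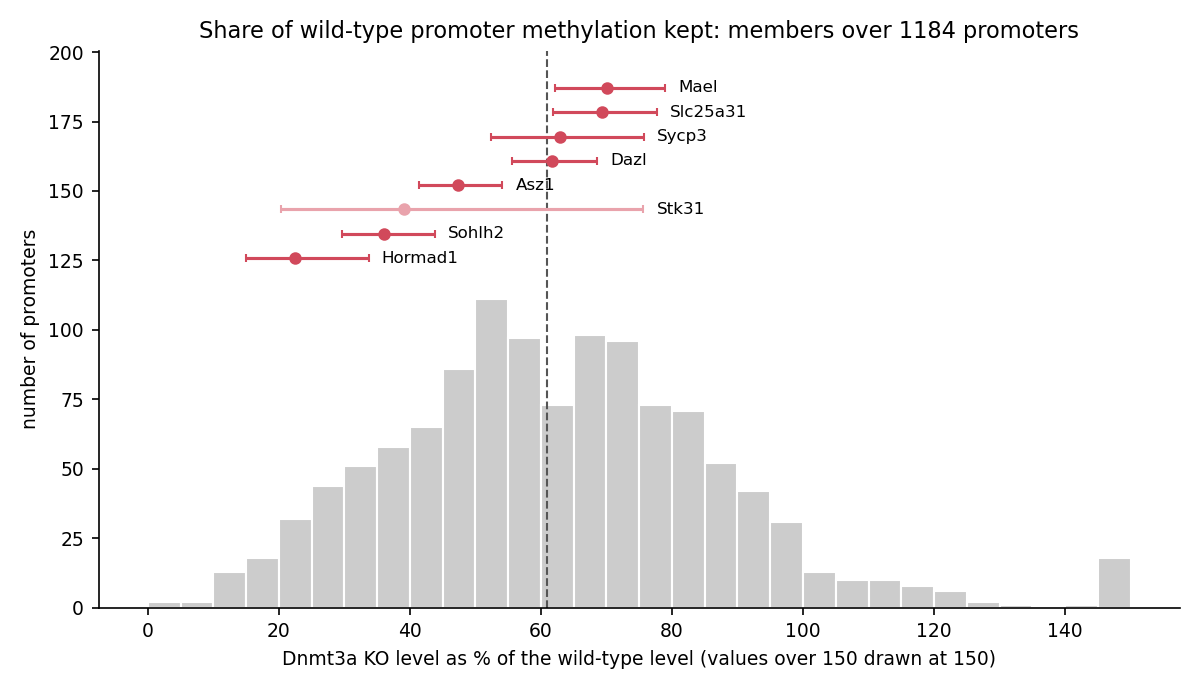
Share of the wild-type methylation found in Dnmt3a KO by pooled reads (horizontal axis, percent) for the 8 germline promoters (points, with 95% intervals of the ratio of reads, lighter for Stk31, which is under 20% in wild type) over the histogram of 1184 promoters with 20 to 80% in wild type (vertical axis, number of promoters). The dashed line is their median of 60.9%, and the germline promoters lie on both sides of it, from 22.5% to 70.0%. The intervals drawn are too narrow where reads span several CpGs.

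In Dnmt TKO, 156 CpGs of these genes were covered, and 12 of 2362 reads were methylated. Of these 12, 11 were those of Ddx4 and 1 was in Mael. Dazl had 0 of 569 methylated reads and Asz1 0 of 261, which allow levels of up to 0.527% and 1.15% if no read was counted at more than 1 CpG. Where reads span several CpGs these limits are too low, since the median depth of a CpG was 12 and 18 reads. At the 125 CpGs covered in the 3 libraries, wild type had 36.4%, Dnmt3a KO 20.0% and Dnmt TKO 0.0512%. What remained in Dnmt3a KO was therefore far above the level without any of the methyltransferases. Of 126 CpGs covered in wild type and Dnmt TKO, 69 were called lower in Dnmt TKO by the same test, where 19.4% of all 299007 shared CpGs were. That share includes CpGs without methylation to lose in wild type, and it was not computed for methylated CpGs alone. All 12 CpGs of Sohlh2 and 14 of the 15 of Asz1 were among the 69, and the one left in Asz1 was the CpG without methylation in wild type.

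The promoters share sequence features. In the 250 bases before to 50 bases after the main start, the 10 genes had a median GC content of 64.5% and 22.5 CpGs, and the 22227 protein-coding promoters 55.3% and 12. The E-box CACGTG was present in 7 of the 10 on either strand, and in 7.78% of all promoters. These were Brdt, Ddx4, Hormad1, Mael, Slc25a31, Stk31 and Sycp3. The E2F motif TCCCGC was present in 5 (24.8% of all promoters), and the MspI site CCGG in 9 (60.0%). CpG-rich promoters hold more words with a CG, and the part of CpG content in these shares was not tested. The Dazl window printed above also holds 2 CACGTG words, before its inner start.

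Some CpGs inside CACGTG were measured, and this comparison was made after their values were seen. In Hormad1, the 2 CACGTG CpGs had 8.42% and 5.81% in wild type, the lowest of its 10 CpGs, whose median was 25.5%. In Slc25a31, the CACGTG CpG had 14.6%, the lowest of 34 with a median of 54.8%. In Dazl, the 2 CACGTG CpGs had 1.75% and 5.26%, within the unmethylated zone, and in Stk31 the only one had 0 of 19 methylated reads, among upstream CpGs that were all at or under 4.76%. In Sycp3, neither was covered in wild type, and in Dnmt3a KO they had 4.76% and 0% among upstream CpGs of up to 47.4%. Outside the 10 genes, 192 such CpGs lay in promoters with 20 to 80% in wild type, and 62.0% of them were under the level of their own promoter, beside 56.2% of all other CpGs there. Their median distance from the level of their promoter was -10.3 points, beside -5.66 points for all other CpGs.

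Other genes of the germline were set beside these from a list of 54, of which 32 had at least 5 shared promoter CpGs. In Dnmt3a KO, 31 of the 32 were lower than wild type, none was higher, and 3 were lower by at least 20 points. Of all 13125 promoters, 67.6% were lower than wild type and 3.24% by at least 20 points. A promoter at 0% cannot go lower, and of the 10883 above 0% in wild type 81.5% were lower. Of the 1184 with 20 to 80% in wild type, 94.2% were lower. The wild-type levels of the 32 germline genes ranged from 0% to 88.8% with a median of 14.4%, and 18 were under 20%. The 12 in the range of 20 to 80% kept a median of 62.7% by pooled reads, and 2 of them were lower by at least 20 points, where 32.4% of all promoters of that range were. The list held 15 genes of the piRNA pathway (8 with at least 5 CpGs, all 8 lower), 19 of meiotic chromosomes and recombination (13 of 14 lower), 11 regulators (4 of 4 lower) and 9 testis enzymes and structural genes (6 of 6 lower). Among those with at least 50% in wild type, the least was kept by Tuba3a, a tubulin of the testis (72.7% in wild type, 31.4% in Dnmt3a KO), by Fkbp6, a co-chaperone of the piRNA pathway (72.2% and 44.0%), and by Stra8, a gatekeeper of meiosis (51.1% and 35.4%). The most was kept by Dpep3, a dipeptidase (77.7% and 77.7%), by Tex101, a surface protein of germ cells (72.8% and 69.1%), and by Tuba3b (80.3% and 68.7%). Reads of the near-identical tubulin genes may be split between copies, so the values of Tuba3a and Tuba3b are uncertain.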

How the data were processed

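RRBS was analysed in 3 ES cell libraries, 1 for each genotype. The authors trimmed reads, aligned them to mm9 and deposited, for each CpG, counts of all reads and of methylated reads, with the fraction of methylated reads beside them. The submitters' processing notes name Trim Galore and Bowtie. CpGs with 10 reads or more were listed. The deposited fraction was not used, since levels were computed from the counts.

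CpGs with more than 10 reads were assigned to transcript starts of GENCODE vM1 (mm9) within 2000 bp. Levels were methylated over all reads, with 95% Wilson, Newcombe and log-ratio (Katz) intervals. Single CpGs were tested by two-sided Fisher's exact test, adjusted by Benjamini-Hochberg over all shared CpGs, tested on simulated data. Genes and lists were chosen with earlier results of these data known. All 10 genes are named, and of other germline genes the 3 lowest and 3 highest kept shares among those with at least 5 shared CpGs and 50% in wild type. Motifs and sequences came from mm9. Alternatives covered coverage, window, transcript type, averaging, thinning and outlying depth. Python 3.11.15, pandas 2.3.3, SciPy 1.17.1 and Numba 0.67.0 were used.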

Additional observations from a re-analysis of the deposited data

How the results depend on the processing

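A window of 1000 bp, and leaving out the 1% of CpGs with most reads or CpGs nearer to another gene, removed none of the 210 CpGs. The pooled difference was therefore the same there (-15.5 points). It kept its sign under all alternatives, and moved outside its interval only when averaged over CpGs (-17.9 points). The median kept share was then 48.9%, and 58.7% with all CpGs of each library. Thinning each CpG to the smaller depth left 11 calls lower in place of 36, fewer reads being tested by construction, and no alternative gave a call higher. The Dnmt TKO level was 0% with more than 20 reads (17 CpGs) and 0.0449% without Ddx4, in place of 0.508%. Calls lower in Dnmt TKO were 10 of 17 CpGs with more than 20 reads, beside 69 of 126 with more than 10. The median kept share of the comparison promoters was 72.4% with at least 50% in wild type, 60.9% with 20 to 80%, and 70.0% with 20 to 80% as means over CpGs, where the germline promoters had 49.3% in place of 61.7%. The last 2 comparisons were chosen after seeing the data, as were the widest intervals, the calls among CpGs of at least 20%, the comparison without Ddx4 and the Dnmt TKO calls at more than 20 reads. With more than 20 reads, Hormad1 joined Sohlh2 and Asz1, so 3 promoters were lower by at least 20 points. With all CpGs of each library there were also 3, the third being Brdt (42.7% in wild type, 0% in Dnmt3a KO), whose CpGs then differ between libraries. For single genes, 76 of 80 kept shares stayed within their intervals. The others were Slc25a31 (60.6%) and Stk31 (0%) with more than 20 reads, Dazl (49.3%) as a mean over CpGs and Sohlh2 (26.0%) within 500 bp. Many of the 80 only repeat the main value and say nothing on stability. Every gene kept exactly its main share with a window of 1000 bp, protein-coding starts or a minimum of 5 shared CpGs. So it did without the 1% of CpGs with most reads, and without CpGs nearer to another gene. No paired analysis was possible because each genotype has 1 library. Depth in Dnmt3a KO and Dnmt TKO limits the calls at single CpGs.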
